A study of Mus musculus with 14 samples.

Results

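The transcripts of 7 matricellular proteins and of fibronectin were followed in scratch-wounded mouse fibroblasts that were left untreated or were given AMG, an autologous micrograft. The 8 genes were chosen by symbol, namely the thrombospondins Thbs1, Thbs2 and Thbs3, tenascin C (Tnc), periostin (Postn), osteonectin (Sparc), osteopontin (Spp1) and fibronectin (Fn1), and all 8 were found among the 43472 genes of both tables. AMG is the soluble material of minced and filtered mouse skin, diluted 1:10 in growth medium. The cells were primary fibroblasts grown from the tail tip of C57BL/6 mice without any transgene or deletion, and every culture was wounded, so that untreated wounded cells were the controls and no unwounded cells were compared. Replicate 1 was sequenced at 1, 5, 12 and 24 h with and without AMG, with 1 library for each condition, and replicates 2, 3 and 4 were sequenced at 5 h only, which gave 14 libraries in 2 tables that had been normalised separately. The age and sex of the mice and the number of animals behind a culture are not given in the sources used here.

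Matricellular proteins are secreted into the matrix but act mainly as signals, by binding integrins, syndecans, growth factors and proteases, and not as load-bearing fibres. They are scarce in most resting adult tissues and appear at sites of injury, where thrombospondin 1 can release TGF-beta from its latent form, tenascin C loosens the hold of cells on fibronectin, periostin and SPARC take part in collagen assembly, and osteopontin binds integrins and CD44. Fibronectin is the provisional matrix over which fibroblasts migrate into a wound, and it is laid down as fibrils by the cells themselves.

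Sequencing depth ran from 12545537 to 34696529 assigned reads per library. Fibroblast markers were abundant in all 14 libraries, with 10 of 10 detected and a sum of 14769 to 35996 RPM (reads scaled to the library total), whereas the sums were 5.68 to 43.2 RPM for keratinocyte markers (Krt1 was listed at 0 in every library) and 13.7 to 95.9 RPM for macrophage and leukocyte markers. In these bulk libraries, fewer cells of a type and less RNA per cell cannot be told apart. The untreated 5 h and the AMG-treated 1 h libraries of replicate 1 stood apart, with ribosomal protein genes taking 7.0% and 5.10% of the reads against 2.27% to 3.47% in the other 12 libraries, and in the 1 h and 5 h ratios of replicate 1 long and short transcripts moved apart (Spearman correlation of the log2 ratio with transcript length of -0.52 and 0.49 across 12862 genes, which are not independent replicates). A value with this trend on length subtracted is therefore given beside the 1 h and 5 h ratios of replicate 1. The exceptions are Wisp2, which had no matched length, the medians over genes and the shares of all genes past 2-fold.

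The 8 transcripts took between 1.98% and 5.34% of all reads of a library. In replicates 2, 3 and 4 at 5 h, their summed share was 4.78%, 3.84% and 5.34% in untreated cells and 2.91%, 3.00% and 3.26% in treated cells, so that every treated library lay below every untreated one. The means were 4.65% ± 0.76 (SD, n = 3) and 3.06% ± 0.18 (SD, n = 3), a difference of -1.59 percentage points that is given without a test. Without Fn1 in the sum, the difference was -1.11 percentage points. It lay mostly in Thbs1 and Fn1. Thbs1 took 1.73%, 1.53% and 2.19% of the reads in untreated replicates 2, 3 and 4 and 0.56%, 0.96% and 0.70% in treated ones. Fn1 took 1.51%, 1.02% and 1.95% untreated and 0.95%, 0.73% and 1.34% treated. The share of Tnc was higher in each treated library than in its partner. In replicate 1 the summed share was lower with AMG at 1 h (2.36% against 3.29%), 12 h (2.59% against 2.95%) and 24 h (2.00% against 2.94%) and higher at 5 h (2.45% against 1.98%), the time at which the untreated library was rich in ribosomal protein transcripts.

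**Figure D1:**
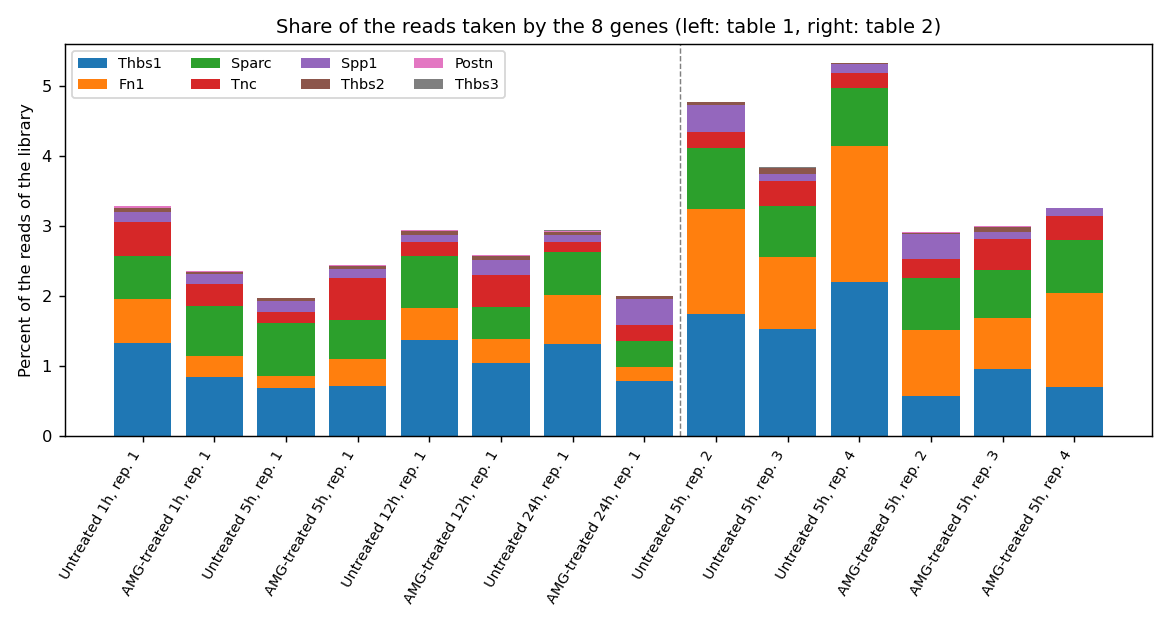
Percent of the reads of each library (y axis) taken by the 8 genes, stacked, in the 14 libraries (x axis), with the replicate 1 time course to the left of the dashed line and replicates 2 to 4 at 5 h to the right. The 3 untreated 5 h libraries on the right reach 3.84% to 5.34%, above the 2.91% to 3.26% of their treated counterparts, and the height is made up mostly of Thbs1, Fn1 and Sparc.

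Thbs1 had more reads than any other gene in 8 of the 14 libraries, and Fn1 had the most in 2 others. Compared per length, in RPKM (reads scaled to transcript length and to the library's own total), the median level over the 14 libraries was 3141 for Sparc, 1703 for Thbs1, 881 for Spp1, 800 for Fn1, 419 for Tnc, 71.0 for Thbs2, 26.1 for Postn and 9.83 for Thbs3. Tnc lay above Thbs2, and Thbs2 above Postn, in 14 of 14 libraries, with median log2 differences of 2.53 and 1.95 that exceeded their SDs over the libraries (0.82 and 1.18). The other neighbours in this order were not separated beyond their spread. Sparc was above Thbs1 in 13 of 14 libraries by a median log2 difference of 0.41 (SD 0.58), and Spp1 was above Fn1 in only 9 of 14. The thrombospondins thus spanned a wide range, from 957 to 3749 RPKM for Thbs1 to 4.39 to 21.8 RPKM for Thbs3.

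The genes lie on different chromosomes of GRCm38 except Postn and Thbs3, which share chromosome 3. Thbs1 is at chr2:118111876-118127133 on the plus strand with 22 exons, Thbs2 at chr17:14665500-14694235 on the minus strand with 22 exons, and Thbs3 at chr3:89215180-89226837 on the plus strand with 23 exons. Tnc is at chr4:63959785-64047015 on the minus strand with 26 exons, Postn at chr3:54361109-54391037 on the plus strand with 22, and Sparc at chr11:55394500-55423183 on the minus strand with 10. Spp1 is at chr5:104435118-104441050 on the plus strand with 6 exons, and Fn1 at chr1:71585520-71653200 on the minus strand with 46. Genes on the opposite strand overlap Thbs1 (Gm29233) and Fn1 (Apol7d) and had at most 14 and 10 reads in a library. Gm42793 overlaps Spp1 on the same strand and has no entry in the tables used here, so its reads could not be set apart from those of Spp1.

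The bases just before the start site are shown for Tnc, which was higher with AMG at 5 h, and for Thbs2 and Postn, which were lower, all 3 in the fit with the replicate number described further on. Each line is the 250 bases before the RefSeq start (GRCm38.p6), read 5′ to 3′ on the strand of the gene, with the TATA box letters TATAAA or their reverse complement in capitals and, in Thbs2 only, the NF-kB site in capitals as well. The windows are chr4:64047016-64047265 (minus strand) for Tnc, chr17:14694263-14694512 (minus strand) for Thbs2 and chr3:54360857-54361106 (plus strand) for Postn.
Tnc: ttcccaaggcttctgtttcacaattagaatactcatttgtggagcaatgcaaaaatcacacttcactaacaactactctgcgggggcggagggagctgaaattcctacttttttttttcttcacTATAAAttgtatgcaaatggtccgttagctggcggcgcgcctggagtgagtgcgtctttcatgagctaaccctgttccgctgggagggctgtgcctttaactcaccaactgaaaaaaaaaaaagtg
Thbs2: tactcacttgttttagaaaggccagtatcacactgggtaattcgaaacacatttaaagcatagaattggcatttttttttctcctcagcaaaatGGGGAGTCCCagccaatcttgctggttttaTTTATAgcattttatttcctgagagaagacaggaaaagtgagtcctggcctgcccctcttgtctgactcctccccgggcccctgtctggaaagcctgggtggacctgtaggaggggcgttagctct
Postn: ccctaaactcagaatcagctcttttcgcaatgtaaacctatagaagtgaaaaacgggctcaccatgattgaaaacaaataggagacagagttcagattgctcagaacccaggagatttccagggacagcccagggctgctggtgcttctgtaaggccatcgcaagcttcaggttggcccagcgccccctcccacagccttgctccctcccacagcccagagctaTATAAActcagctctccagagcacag
The TATA box letters began 126 bases before the start in Tnc and in Thbs2 and 26 bases before it in Postn. The NF-kB site of Thbs2 began 156 bases before the start and did not overlap the TATA box.

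Windows were found for 6 of the 8 genes, all but Thbs1 and Fn1. The letters TATAAA stood in 4 of the 6 windows, in Spp1 as well as in the 3 shown, and in 12.4% of the 32851 windows of the same length. On both strands, the AP-1 site TGANTCA and the TEAD site GGAATG were in 0 of the 6 windows and in 6.75% and 12.6% of all windows, and the CArG box was in 0 of 6 and in 1.47%. The NF-kB site was in 7.25% of all windows, and the GC box GGGCGG, present in Thbs3 and Tnc, in 32.7%. A match or its absence describes these letters in this window only, and the RefSeq start of Sparc lies 3103 bases from the 5′ end of the gene given above.

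Whether AMG altered these transcripts was first compared at 5 h in replicates 2, 3 and 4, with 3 libraries against 3. With limma on log2(normalised count + 1) and no term for the replicate number, 0 of the 8 genes passed an adjusted p of 0.05, against 1.24% of the 13096 genes tested. The count of members was 1 (Thbs1) at an unadjusted p under 0.05, against 23.1% of all genes. It was 0 with edgeR, against 1.03%, and 1 (Thbs1) with DESeq2, against 11%. Libraries with the same replicate number deviated together, as described under the processing, and with the replicate number as a block limma called 5 of the 8 genes. Thbs1, Thbs2, Postn and Fn1 were lower with AMG, 4 of 8 against 19.3% of all genes called lower, and Tnc was higher, 1 of 8 against 17.9% of all genes called higher. Both fits give the same fold changes and differ in the error set against them, so both adjusted p-values of limma are given below. The p-values measure only the spread between these libraries, since the labels do not say what a replicate number shares.

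Thbs1, which encodes a thrombospondin that binds CD47, CD36 and latent TGF-beta, had the largest difference of the 8 genes. Its normalised counts were 311396, 267598 and 411454 in the untreated replicates 2, 3 and 4 and 104110, 171478 and 137906 in the treated ones. All 3 treated libraries lay below all 3 untreated libraries. Among all genes tested, 13.6% had groups that did not overlap with AMG lower, and 15.1% with AMG higher, where none of the 8 genes was found. Thbs1 averaged 330149 ± 73739 without and 137832 ± 33684 with AMG (SD, n = 3), a log2 difference of -1.27 (SE 0.30), which left 41.6% of the untreated level. The adjusted p was 0.0898 in limma without the block and 0.0018 with it, where the 95% interval ran from -1.71 to -0.82. The decrease stayed past the threshold of the blocked fit when any 1 of the 3 pairs was left out. Replicate 1, which took no part in this fit, had nearly equal counts at 5 h, with a log2 ratio of -0.02 (-0.51 length corrected). DESeq2 gave an adjusted p of 6.58e-05 without a block. Over all alternatives run with limma, edgeR and DESeq2 the adjusted p ranged from 3.61e-08 to 0.288. With the trend on transcript length subtracted, as for Fn1 below, the blocked log2 difference of Thbs1 was -1.03 (limma adjusted p of 0.00183).

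Thbs2, whose product is close to thrombospondin 1 in structure and is known for its part in collagen fibril formation and in restraining vessel growth, was far less abundant and varied more. Normalised counts were 6631, 13853 and 4302 untreated and 3650, 12502 and 2424 treated in replicates 2, 3 and 4. The groups overlapped, since the treated replicate 3 lay above 2 untreated libraries, and the treated library was lower in each of the 3 pairs. The log2 difference was -0.61 (SE 0.67), with an adjusted p of 0.610 in limma without the block and 0.00806 with it. The blocked call was lost without replicate 2. With the correction for length, the difference was -0.38. Thbs3, a thrombospondin of the pentameric group found in skeletal tissues, gave 475, 770 and 319 untreated and 368, 574 and 276 treated. It was also lower in each pair, by a log2 difference of -0.33 (SE 0.38), and passed neither fit (limma adjusted p of 0.630 without and 0.0530 with the block). In replicate 1 both were higher with AMG at 5 h, Thbs2 by a log2 ratio of 0.66 (0.17 length corrected) and Thbs3 by 0.58 (0.52 length corrected).

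Within each library the ratio of Thbs1 to Thbs2 gives the balance of these close paralogs, and it does not depend on the scaling of the library. At 5 h the ratio of normalised counts was 20.9, 47.0, 19.3 and 95.6 in the untreated replicates 1 to 4 and 13.1, 28.5, 13.7 and 56.9 in the treated ones. It was lower with AMG in 4 of 4 pairs, although the groups overlapped widely. The mean log2 ratio was 5.2 ± 1.09 untreated and 4.54 ± 1.00 treated (SD, n = 4), a difference of -0.66 with a two-sided exact permutation p of 0.371, where the smallest possible was 0.0286. With the pairs kept, the exact sign-flip permutation p was 0.125, the smallest that 4 pairs can give. In replicate 1 the ratio was higher with AMG at 1 h (26.8 against 21.1) and lower at 12 h (17.0 against 24.9) and 24 h (19.5 against 30.0).

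Tnc, which encodes a large hexameric glycoprotein induced at wound edges, was the member with higher values after AMG. Normalised counts were 41709, 61972 and 38680 untreated and 52775, 81449 and 66152 treated in replicates 2, 3 and 4. Treated replicate 2 lay within the untreated range, so the groups overlapped, but the treated library was higher in all 3 pairs. The log2 difference was 0.50 (SE 0.26), a 1.42-fold level. The limma adjusted p was 0.288 without the block and 0.0124 with it (95% interval 0.23 to 0.78), and 0.192 with the block when the pair of replicate 4 was left out (0.000461 to 0.551 over all alternatives). Replicate 1, which took no part in this fit, had 125643 treated against 37024 untreated at 5 h. This was a log2 ratio of 1.76 that became 1.16 after the correction for length. The same correction moved the mean difference of replicates 2 to 4 to 0.78.

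Postn encodes an integrin-binding protein of collagen-rich tissues, and it was the most uneven of the 8 genes between replicates. Its normalised counts were 679, 1356 and 103 untreated and 494, 1016 and 78 treated. The highest untreated library had 13.2 times the lowest, whereas the differences within the pairs were nearly equal, with log2 ratios of -0.46, -0.42 and -0.39. The last of these ratios rests on 69 treated and 190 untreated reads only. Replicate 1 went the other way, with a log2 ratio of 0.25 (0.19 length corrected). The mean log2 difference of -0.42 had an SE of 1.19 without the block and 0.12 with it, and the limma adjusted p was 0.859 and 0.0221. Without replicate 2 or without replicate 4 the blocked call was lost.

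Sparc, a calcium- and collagen-binding protein, was the steadiest. It had 158214, 129427 and 156845 normalised counts untreated and 137045, 121905 and 150371 treated, and the groups overlapped. The log2 difference was -0.12 (SE 0.21; limma adjusted p of 0.771 without and 0.495 with the block), and the 95% interval with the block was -0.41 to 0.17. All 4 replicates had a lower value with AMG at 5 h, replicate 1 by a log2 ratio of -0.53 (-0.33 length corrected).

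Spp1, a secreted phosphoprotein that fibroblasts, macrophages and bone cells make, followed the replicate number and not the treatment at 5 h. Normalised counts were 69291, 17230 and 23986 untreated and 65230, 18411 and 22221 treated. Both libraries of replicate 2 were high and the other 4 were low. The log2 difference was -0.03 (SE 0.64), the limma adjusted p was 0.982 without and 0.818 with the block, and the 95% interval with the block was -0.26 to 0.19. Cartilage and bone markers, of which 10 of 10 were detected and 2 had under 3 reads in every library, summed to 1355 RPM in untreated and 744 in treated replicate 2 against 45.9 to 182 in the other 12 libraries. This excess lay in 2 genes of the list, Col2a1 (1221 and 663 RPM against 6.49 to 72.1) and Alpl (68.2 and 50.2 against 0.393 to 7.28), and without them the list summed to 65.7 and 30.3 RPM, within the 30.2 to 139 RPM of the other libraries. Macrophage and leukocyte markers, 10 of 10 detected, summed to 23.6 and 42.3 in the same libraries of replicate 2, within the range of the others. Whether these genes and Spp1 came from the same cells was not tested.

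Fn1 ranked behind Thbs1 alone by reads in the untreated libraries of replicates 2, 3 and 4, with 270402, 178095 and 366049 normalised counts, and had 177347, 131104 and 262728 in the treated ones. The groups overlapped, and each treated library was lower than its partner, by log2 ratios of -0.61, -0.44 and -0.48. The mean difference was -0.51 (SE 0.38), with a limma adjusted p of 0.450 without the block and 0.0189 with it (95% interval -0.82 to -0.20), a blocked call that was lost without replicate 2 or without replicate 4. With 8315 bases Fn1 is the longest of the 8 transcripts, and long transcripts tended to have lower ratios in all 3 pairs (Spearman correlation across 12480 genes of -0.37, -0.22 and -0.44). With the correction for length in the blocked fit the Fn1 difference was -0.20 with a limma adjusted p of 0.232 (0.00387 to 0.925 over all alternatives), and 4 of the 8 genes were called. Thbs1, Thbs2 and Postn were lower (-1.03, -0.38 and -0.39), against 15.6% of all genes, and Tnc was higher (0.78), against 17.8%. Thbs3, Sparc and Spp1 gave -0.30, -0.18 and -0.24 in that fit and were not called. In replicate 1 Fn1 was higher with AMG at 5 h, by a log2 ratio of 1.03 (0.37 length corrected).

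**Figure D2:**
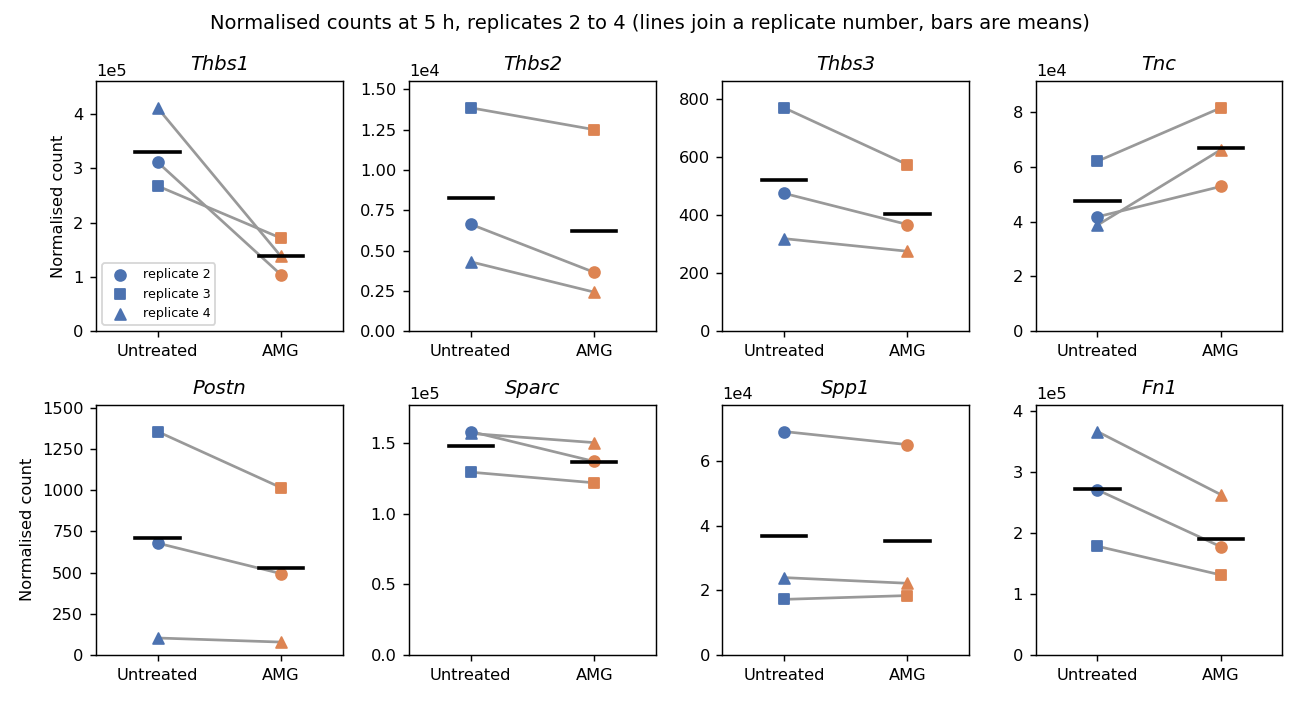
Normalised counts (y axis, linear, from 0) of each gene in untreated and AMG-treated libraries at 5 h, with marker shapes for replicates 2, 3 and 4, grey lines joining libraries of the same number and black bars for the means of 3. All 3 lines go up for Tnc and down for Thbs1, Thbs2, Thbs3, Postn, Sparc and Fn1, and those of Spp1 go both ways. In every gene but Thbs1, the untreated or the treated replicates span a wider range than any line.

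The sum of squares of the 6 libraries was divided between replicate number, treatment and remainder as a description. For Thbs1, 84.0% went with treatment and 5.80% with the replicate number. Tnc was shared about evenly, with 45.0% for treatment and 48.3% for the replicate number. For the other 6 genes the replicate number took most, from 72.4% in Fn1 and 77.6% in Sparc to 98.2% in Postn and 99.7% in Spp1, against a median of 48.4% over all genes tested. Treatment took 27.1% in Fn1, 17.4% in Sparc, 11.1% in Thbs2 and 10.9% in Thbs3, against a median of 32.2% over all genes.

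**Figure D3:**
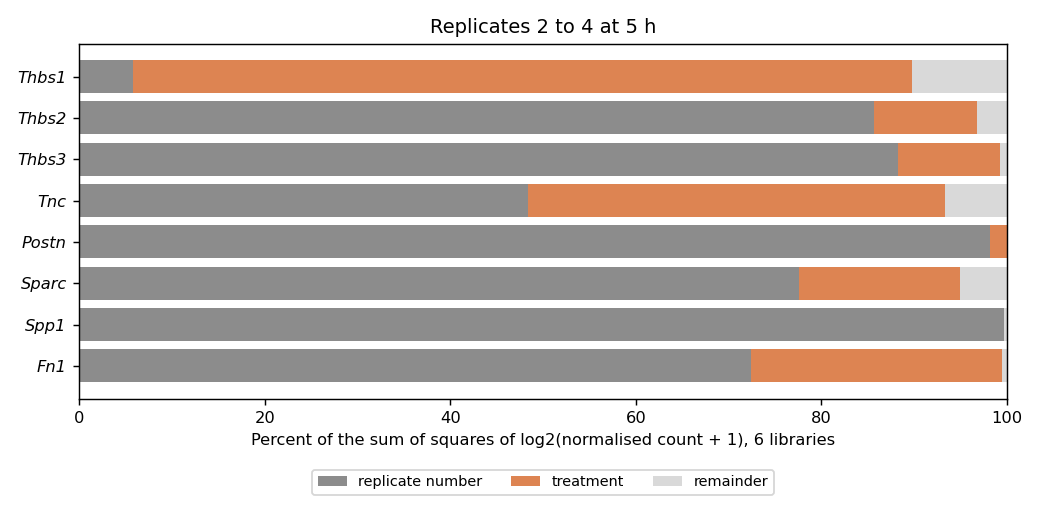
Percent of the sum of squares of log2(normalised count + 1) over 6 libraries (x axis) that goes with replicate number, treatment and remainder, for each gene (y axis). Treatment takes 84.0% in Thbs1 and 45.0% in Tnc, and the replicate number takes 99.7% in Spp1.

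**Figure D4:**
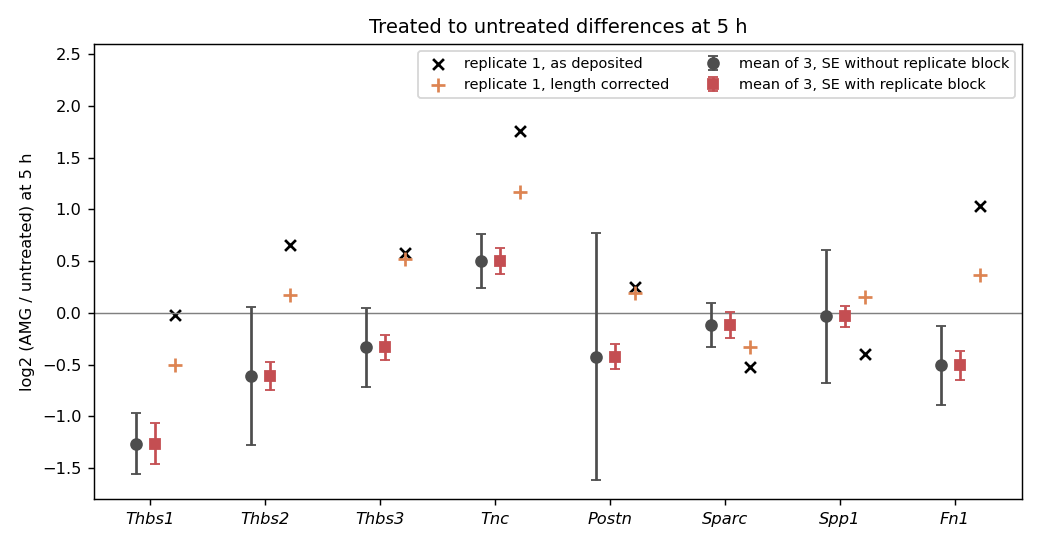
Log2 ratio of AMG-treated to untreated at 5 h (y axis) for each gene (x axis), as the mean of replicates 2 to 4 with the SE of limma without (circles) and with (squares) the replicate block, and as the single ratio of replicate 1 before (crosses) and after (plus signs) length correction. Only Thbs1 and Sparc lie below 0, and only Tnc lies above 0, in the mean and in both values of replicate 1, and the SE of Postn shrinks from 1.19 to 0.12 with the block.

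How the transcripts developed over time was read from replicate 1, which has no replicate check, so that no p-value is given and differences past 2-fold are counted. At 1 h none of the 8 genes was past 2-fold, where 10.7% of 13498 genes were lower and 11.3% were higher by that much. At 5 h, 2 of 8 (Tnc and Fn1) were higher and 0 lower, where 13.3% of all genes were higher and 12.6% lower. With length correction Tnc stayed past 2-fold (log2 ratio 1.16) and Fn1 did not (0.37). At 12 h, 2 of 8 (Tnc and Spp1) were higher and 0 lower, against 5.93% and 6.9% of all genes. At 24 h, 1 of 8 (Spp1) was higher and 3 of 8 (Thbs3, Postn and Fn1) were lower, against 6.05% and 8.05% of all genes. The median log2 ratio of the 8 genes was -0.46, 0.42, -0.30 and -0.69 at 1, 5, 12 and 24 h, beside -0.06, -0.01, -0.01 and 0.02 over all genes. These medians are not length corrected, so those at 1 h and 5 h carry the trend with transcript length. Of the 8 ratios, 6 were below 0 at 1 h and 3 at 5 h, and 5 and 2 with length correction.

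As deposited, Tnc kept more of its early level in treated cells. Untreated normalised counts were 104454, 37024, 35920 and 23701 at 1, 5, 12 and 24 h, so that the last was 0.227 times the first. Treated counts were 75197, 125643, 82571 and 42566, with a 24 h level 0.566 times that at 1 h. Neither of these levels relative to 1 h is length corrected, and the treated 1 h library stood apart, as described above. At 1 h the treated library had less Tnc as deposited (log2 ratio -0.47), a difference that length correction removed (0.02). Treated libraries had more Tnc at 5, 12 and 24 h (1.76, 1.20 and 0.84, and 1.16, 1.06 and 1.01 length corrected).

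Spp1 parted late. It went from 28767 at 1 h to 35688, 19072 and 18760 in untreated cells and from 36992 to 27101, 39232 and 66740 in treated cells. The log2 ratio was 0.36 at 1 h and -0.40 at 5 h, and both turned in sign with length correction (-0.14 and 0.15). At 24 h the treated library had a log2 ratio of 1.83 over the untreated one (counting interval 1.81 to 1.85), after 1.04 at 12 h. The summed cartilage and bone markers were lower in the treated 24 h library (45.9 against 138 RPM), as were macrophage and leukocyte markers (60.5 against 71.0). Past 2-fold at 24 h, 4 of 5 cartilage and bone markers were lower with AMG and 0 higher. Of 8 macrophage and leukocyte markers, 5 were lower and 1 higher (Cd14, log2 ratio 2.99). Among all genes 8.05% were lower and 6.05% higher. Whether cells of these types bear on the Spp1 values was not tested.

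Fn1 went the other way at 24 h. Untreated counts were 130617, 39796, 82605 and 123887 at 1, 5, 12 and 24 h, with a dip in the 5 h library that stood apart, and treated counts were 73025, 81509, 64346 and 37582. The log2 ratio was -0.84 at 1 h (-0.33 length corrected), -0.36 at 12 h and -1.72 at 24 h (-1.53 length corrected). Sparc had 171006, 119310, 83088 and 67040 in treated cells at 1, 5, 12 and 24 h, and its log2 ratio was 0.43 at 1 h (0.30 length corrected), -0.67 at 12 h and -0.71 at 24 h.

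Thbs1 was lower with AMG at 12 and 24 h in replicate 1, with 189142 against 247002 and 143075 against 229187 normalised counts (log2 ratios of -0.39 and -0.68). At 5 h its counts were almost equal, 150581 against 152889, which is a log2 ratio of -0.02, or -0.51 length corrected. At 1 h the log2 ratio was -0.45, or 0.00 length corrected. Thbs2 was within 2-fold at all 4 times, with log2 ratios of -0.80, 0.66, 0.17 and -0.05 (-0.34 and 0.17 length corrected at 1 and 5 h). Thbs3 and Postn reached -1.12 and -1.18 at 24 h, after 0.58 and 0.25 at 5 h (0.52 and 0.19 length corrected). Postn at 24 h was at 0.420 of its 1 h level in untreated and 0.240 in treated cells, as deposited.

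**Figure D5:**
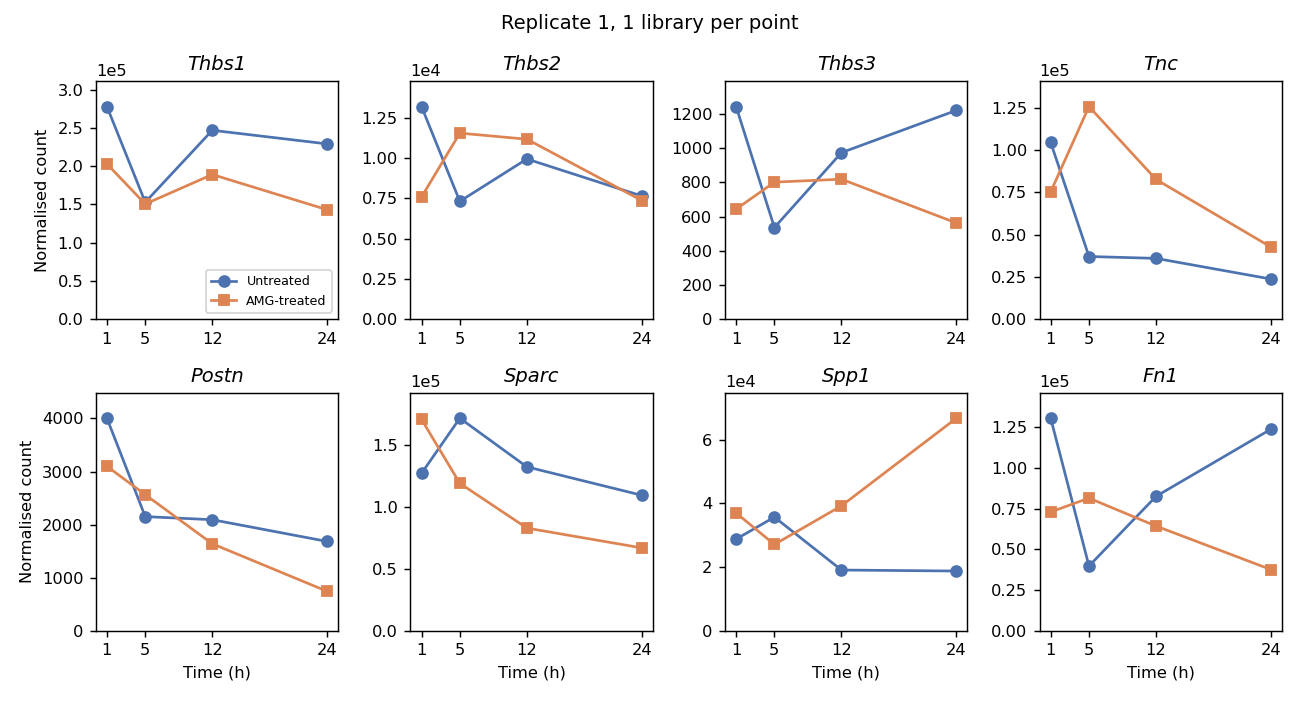
Normalised counts (y axis, linear, from 0) of each gene at 1, 5, 12 and 24 h (x axis) in replicate 1, with 1 library per point, untreated in blue and AMG-treated in orange. Tnc is higher with AMG from 5 h on, Spp1 separates at 12 and 24 h, and Fn1 ends at 37582 with AMG against 123887 without.

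Genes whose pattern was most like that of Thbs1 and of Spp1 were sought by Pearson correlation over the 8 libraries of replicate 1 among 11389 genes, as a description, since these libraries share a replicate number and a table. Crim1 (r = 0.96) was closest to Thbs1, and over the 6 libraries of the other table it gave 0.93. Cdh6, Tiam2 and Ranbp17 were also among the closest, with 0.95, 0.95 and 0.94, and gave 0.29, 0.77 and 0.47 over the 6 libraries. For Spp1 the closest were Dpep1 (0.98), Slpi (0.97), Prdx6 (0.97), Saa3 (0.96) and Ttc39c (0.96), and over the 6 libraries these gave -0.99, 0.21, -0.30, 0.36 and 0.03.

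Other genes of the same network were taken from lists. In limma without the block, 0 genes of the 4 lists passed the threshold at 5 h, and the 3 genes of each list with the lowest adjusted p are given as values. Of 15 other matricellular genes tested, 0 were higher and 2 lower in the blocked fit, against 17.9% and 19.3% of all genes. Their median log2 difference was -0.07 beside -0.02 over all genes. Wisp2, a CCN family protein, averaged 13972 ± 3687 untreated and 6846 ± 1181 treated (SD, n = 3; log2 difference -1.01, limma adjusted p of 0.0940 without and 0.000125 with the block), and Wisp1 and Tgfbi gave 0.24 and -0.27. In replicate 1 the log2 ratio of Wisp2 was -2.20, -2.10 and -1.75 at 5, 12 and 24 h.

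Of 15 receptors of the 8 proteins, 4 were higher and 3 lower in the blocked fit (median 0.14), against 17.9% and 19.3% of all genes. Itgb3, the beta subunit of the integrin that binds osteopontin, fibronectin, periostin and tenascin C, averaged 852 ± 601 untreated and 3111 ± 1726 treated (log2 difference 1.95, limma adjusted p of 0.119 without and 4.33e-06 with the block), and its log2 ratio in replicate 1 was 2.86 at 5 h (2.38 length corrected), 2.87 at 12 h and 2.46 at 24 h. Sdc4, a syndecan that joins integrins in binding fibronectin, had a log2 difference of 1.13, and Cd44, a receptor of osteopontin, 0.59 (limma adjusted p of 0.196 and 0.216 without the block, 0.000457 and 0.00371 with it). In replicate 1 at 5 h the log2 ratio was -0.01 for Sdc4 and 0.81 for Cd44 (0.14 and 0.35 length corrected).

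Of 15 genes of the TGF-beta axis, 2 were higher and 4 lower in the blocked fit (median -0.22), against 17.9% and 19.3% of all genes. The ligands differed in sign, with Tgfb1 at 1139 ± 203 untreated and 2376 ± 551 treated (log2 difference 1.05) and Tgfb3 at 11311 ± 4219 and 5109 ± 2160 (-1.16), with limma adjusted p of 0.0658 and 0.15 without the block and 7.76e-05 and 4.46e-05 with it. Smad2, a signal transducer of the pathway, had a log2 difference of 0.33 (0.192 and 0.0223). Of 13 structural matrix partners, 0 were higher and 9 lower in the blocked fit (median -0.51), against the same 17.9% and 19.3%. The counts and differences of all these lists at 5 h are not corrected for transcript length. Long transcripts tended to have lower ratios in these pairs, and the part of length in these counts was not tested. Col3a1, Col5a1 and Col1a2, chains of fibrillar collagens, had log2 differences of -0.54, -0.51 and -0.57 (limma adjusted p of 0.170, 0.191 and 0.229 without and 0.00971, 0.0144 and 0.0103 with the block), and in replicate 1 at 5 h their ratios were 0.28, 0.71 and 0.40 (-0.17, 0.03 and -0.03 length corrected). Fibroblast markers, which share collagens with this list, were 1 higher and 6 lower of 10 in the blocked fit, against 17.9% and 19.3%. They summed to 27776 to 35996 RPM in untreated and 22477 to 27124 in treated libraries. Their part in the results for Thbs1 and Fn1 was not tested.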

How the data were processed

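RNA from 14 libraries of primary mouse fibroblasts was sequenced after a stranded mRNA preparation. The submitters' processing notes name TopHat2 2.0.13, SAMtools 0.1.19.24, HTSeq 0.5.3p3, FastQC 0.11.5, DESeq and build mm10; the annotation release and strand setting are not given in the sources used here. The deposited values are normalised counts (unit signal), which the authors made by dividing the reads of a gene by the size factor of its library, in 2 separate tables. In each library 100% of values were whole multiples of 1 read (tolerance 0.1 read), so reads, shares and library totals were recovered. Depth was 12545537 to 34696529 reads, and counting intervals cover counting error only, without molecular identifiers.

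Genes with a mean of at least 10 (13096) were tested at 5 h in replicates 2 to 4 with limma 3.58.1 (R 4.3.3) on log2(normalised count + 1), with a trend and Benjamini-Hochberg adjustment, so fold changes are on that scale. Alternatives were edgeR 4.0.16 and DESeq2 1.42.0 on recovered reads, other pseudocounts, filters and scalings, a correction for transcript length, the replicate block and each library left out. A further alternative was edgeR on all 4 replicates at 5 h, with the table as a batch. Deviations from group means correlated at 0.65, 0.76 and 0.70 between same-numbered libraries and at -0.59 to 0.12 between others. The replicate number was therefore used as a block. Deviations within a group of 3 sum to 0, so positive values between same numbers push the others below 0. RPKM used GENCODE M21 transcript lengths. The fits were tested on simulated data that held no replicate effect and no trend with transcript length, unlike the real libraries. All 8 members are named; of each list, genes past the threshold or otherwise the 3 with the lowest adjusted p, and the 5 genes most like Thbs1 and Spp1 (mean of at least 50), of which 1 is not reported here. The members and lists were chosen with earlier results of these data known.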

Additional observations from a re-analysis of the deposited data

Results flagged for a closer look

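Spp1 took 0.351% of the reads in the AMG-treated 5 h library of replicate 2, against 0.103% to 0.128% in the other 3 treated 5 h libraries. This library lay far from the rest of its group by Dixon's criterion (gap 0.898 of the range), a criterion that chance meets in about 1 in 20 groups, and 18 groups were searched. The untreated library of the same number was high as well, with 0.386%.

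For Tnc and Sparc the single ratio at 1 h in replicate 1, as deposited, had the opposite sign to all 4 ratios at 5 h. The sign of the 1 h ratio of Tnc turned with length correction, and that of Sparc did not. Tnc had a log2 ratio of -0.47 at 1 h (0.02 length corrected) and 1.76, 0.34, 0.39 and 0.77 at 5 h in replicates 1 to 4. The 5 h ratio of replicate 1 was 1.16 length corrected. Sparc had 0.43 at 1 h (0.30 length corrected) and -0.53, -0.21, -0.09 and -0.06 at 5 h, the first of these being -0.33 length corrected. With 1 library per condition at 1 h, the difference between the times was not tested.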

How the results depend on the processing

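Against 162 genes called by limma without a block, 1440 were called with DESeq2, 80 without the trend, 4872 with the replicate block, 4852 with edgeR and the block, 4171 with length correction and the block, and 1 to 2199 with 1 library left out. Members called were 0, and 1 with DESeq2, 5 with the replicate block in limma or edgeR, 4 with length correction and the block, and 0 to 1 with 1 library left out (Thbs1 without treated replicate 3). With all 4 replicates at 5 h, the table as a batch and no replicate block, edgeR called 231 genes and 0 members. Its log2 differences were -0.95 for Thbs1 (edgeR adjusted p 0.173), 0.81 for Tnc (0.238) and -0.14 for Thbs2 (0.943). Those of Postn and Fn1 were -0.24 (0.935) and -0.13 (0.925). The paired fit without replicate 2, 3 or 4, chosen after seeing the data, called 1508, 6803 and 2678 genes and 2, 5 and 2 members. All 6 library omissions kept Thbs1 lower (-1.44 to -1.08) and Tnc higher (0.35 to 0.71). The ranges were -1.30 to -0.12 for Thbs2, -0.64 to -0.01 for Thbs3, -0.78 to -0.26 for Fn1, -0.21 to -0.04 for Sparc, -1.49 to 0.63 for Postn and -0.60 to 0.56 for Spp1. The sign turned for Postn without treated replicate 4 (0.63) or untreated replicate 3 (0.36), and for Spp1 without treated replicate 3 (0.32) or 4 (0.18), without untreated replicate 2 (0.56), and in the paired fit without replicate 4 (0.0042). The differences in the summed share ranged from -2.0 to -1.25 and in the Thbs1 to Thbs2 log2 ratio from -1.09 to -0.20 with 1 library left out. Upper quartile rescaling gave 1 member past 2-fold at 1 h and 1 at 12 h, and length correction gave 1 at 5 h and, with Tnc at 1.01, 5 at 24 h. Other causes of these shifts were not tested. With 1 library per condition the time course has no replicate error. The lowest count of a member was 69 reads, for Postn in treated replicate 4 at 5 h, against 190 in its untreated partner.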
